A study of Bos taurus with 12 samples.

Results

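The 9 genes described here are RAX, SIX3, SIX6, LHX2, MITF, PMEL, RLBP1, MAB21L1 and RORB, which act in the eye field, the retina or pigment cells. Each was found by its Entrez identifier in the deposited counts, which gave 9 genes of 18885 entries kept. They were chosen by the large differences seen in these same counts, chiefly of 1/7MC from MC and of 1/7MC+Pyr from 1/7MC. Their levels in 1/7MC are therefore given as a description, without a test. Differences among the other 3 groups were tested. Values of MC and 1/7MC+Pyr also entered the choice of members, so these tests and the counts of members called are not independent of it.

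The eye field is the patch of the anterior neural plate from which both eyes form, and it is marked by a set of transcription factors that includes RAX, PAX6, SIX3, SIX6 and LHX2. The optic vesicle that grows out of it divides into neural retina and pigment epithelium. MITF directs the pigment program, PMEL forms the fibrils of the melanosome, and RLBP1 carries visual-cycle retinoids. None of these genes defines pluripotent cells.

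Each library is poly-A RNA from bovine embryonic stem cells; all come from 1 line, F7, of genotype WT. The groups are 1/7MC+Pyr+FGF, 1/7MC+Pyr, 1/7MC and MC, with 3 libraries each. The title names feeder layers of low density, pyruvate and recombinant human basic FGF; the labels spell out neither MC, which they equate with 1M, nor any dose or time, give the MC libraries the treatment NC, and do not say whether replicates are separate cultures, so the p-values may measure technical spread only. Pluripotency markers were present in every library, with a summed level of 3242 to 3664 CPM (counts scaled to library size) in 1/7MC+Pyr+FGF, 3918 to 4185 in 1/7MC+Pyr, 2350 to 2671 in 1/7MC and 3914 to 4036 in MC over 10 genes. Fibroblast and feeder markers summed to 15330 to 21720 CPM, 22500 to 33110 CPM, 19350 to 25910 CPM and 6330 to 6468 CPM in the same order of groups over 15 genes. Totals ran from 27373759 to 44440972 counts per library. MC replicates 2 and 3 stand apart: where entries share an Ensembl identifier, 0 of 128 identifiers carried differing counts there, against 80 to 86 in each of the other 10 libraries, so their gene models differ. Results of the members against MC are therefore repeated against MC replicate 1 alone, a fit in which that single library is assumed to vary like the replicates of the other groups.

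No member was too low to measure by the filter used: all 9 passed it, also over the 9 libraries without 1/7MC, so none passed only through its level in 1/7MC. The lowest values were those of RORB in MC, with 7, 8 and 5 counts. The exact Poisson 95% interval of the last was 0.0603 to 0.433 CPM, for counting error only. RLBP1 had 9 to 22 counts and RAX 14 to 22 counts in 1/7MC+Pyr.

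**Figure D1:**
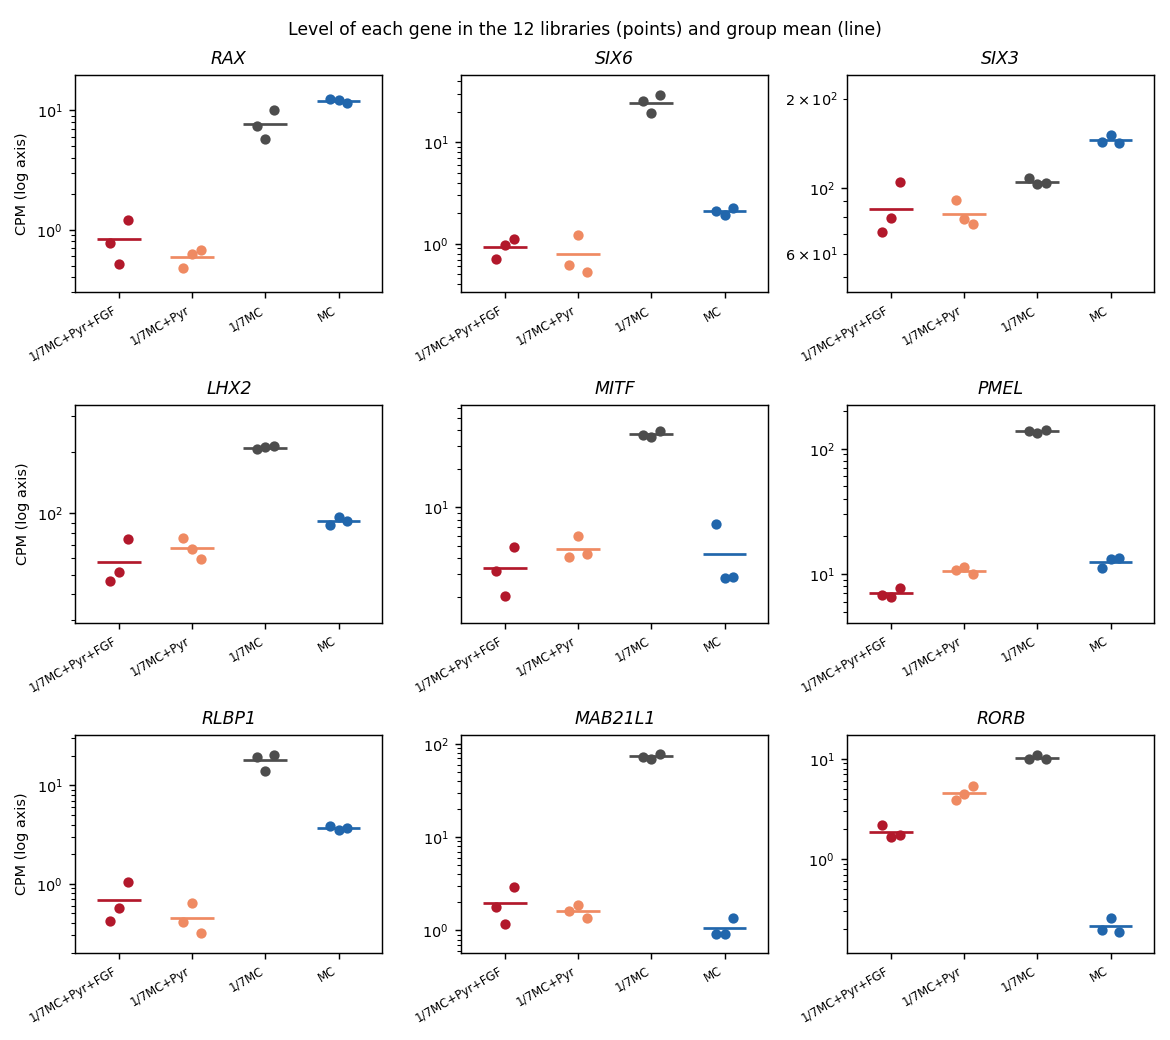
CPM on a log axis for each of the 9 genes, with 1 point per library and a line at the mean of the 3 libraries of a group. The 3 libraries of 1/7MC lie above all others for 7 genes, while RAX and SIX3 are highest in MC, at 12.1 and 145 CPM on average.

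RAX, the homeodomain factor required for eye formation in vertebrates, was nearly absent in both pyruvate groups and highest in MC. It had 0.773, 0.514 and 1.22 CPM in 1/7MC+Pyr+FGF and 0.480, 0.632 and 0.675 CPM in 1/7MC+Pyr. The levels were 7.42, 5.75 and 10.02 CPM in 1/7MC, and 12.5, 12.2 and 11.6 CPM in MC. The pyruvate groups overlapped each other, and the ranges of 1/7MC and MC lay above them without touching. RAX averaged 7.73 ± 2.15 CPM in 1/7MC and 12.1 ± 0.463 CPM in MC (SD, n = 3 each), so the mean was 1.56 times lower in 1/7MC than in MC.

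SIX3, a homeodomain factor of the eye field and forebrain, was among the more abundant members in every group. Its levels were 71.1, 79.0 and 105 CPM in 1/7MC+Pyr+FGF, and 91.0, 78.2 and 75.4 CPM in 1/7MC+Pyr. In 1/7MC it had 108, 103 and 104 CPM, and in MC 143, 151 and 142 CPM. Only MC stood clear of all other libraries. The means of 84.9 ± 17.6, 81.6 ± 8.35, 105 ± 2.63 and 145 ± 4.73 CPM (SD, n = 3 each) span a factor of 1.78 between 1/7MC+Pyr and MC, the narrowest span of the 4 eye field members.

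SIX6, the close relative of SIX3 that maintains retinal progenitors, followed another order. Levels were 0.703, 0.968 and 1.10 CPM in 1/7MC+Pyr+FGF, and 0.617, 1.21 and 0.533 CPM in 1/7MC+Pyr. They were 25.4, 19.4 and 29.0 CPM in 1/7MC, against 2.101, 1.915 and 2.264 CPM in MC. The 1/7MC libraries stood far above the rest, MC came next, and the 2 pyruvate groups overlapped. Mean SIX6 was 31.4-fold lower in 1/7MC+Pyr than in 1/7MC, and 11.8-fold higher in 1/7MC than in MC.

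LHX2, a LIM homeodomain factor needed for the optic vesicle, was the most abundant member in CPM in 1/7MC. It had 46.6, 51.5 and 74.6 CPM in 1/7MC+Pyr+FGF, and 75.8, 66.6 and 59.5 CPM in 1/7MC+Pyr. The 1/7MC libraries had 205, 211 and 212 CPM, and the MC libraries 87.8, 95.7 and 91.9 CPM. As for SIX6, 1/7MC was highest and MC next, and the pyruvate groups overlapped. Mean LHX2 was 3.11-fold lower in 1/7MC+Pyr than in 1/7MC, and 2.28-fold higher in 1/7MC than in MC.

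Of the pigment and retinoid members, MITF, the transcription factor of pigment cells, had 3.19, 2.03 and 4.93 CPM in 1/7MC+Pyr+FGF. It had 4.08, 5.95 and 4.30 CPM in 1/7MC+Pyr, 36.8, 35.5 and 39.5 CPM in 1/7MC, and 7.45, 2.81 and 2.86 CPM in MC. Only 1/7MC stood apart, and the other groups overlapped. MC replicate 1 was well above the other MC libraries, which were counted with other gene models. The mean of 1/7MC was 8.52-fold that of MC, a log2 ratio of 3.09, which was 2.32 against MC replicate 1 alone and 3.72 without it.

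PMEL, the melanosome fibril protein, had 6.77, 6.54 and 7.65 CPM in 1/7MC+Pyr+FGF, and 10.7, 11.3 and 9.91 CPM in 1/7MC+Pyr. It reached 139, 134 and 140.4 CPM in 1/7MC, against 11.1, 13.1 and 13.4 CPM in MC. PMEL was thus plentiful in 1/7MC and present at a lower level everywhere, with 216 or more counts in each library. Its mean was 13.0-fold lower in 1/7MC+Pyr than in 1/7MC. The mean was 138 CPM in 1/7MC against 12.5 CPM in MC. RLBP1, the cellular retinaldehyde-binding protein of pigment epithelium and Müller glia, had 0.422, 0.575 and 1.05 CPM in 1/7MC+Pyr+FGF and 0.411, 0.632 and 0.320 CPM in 1/7MC+Pyr. Its levels were 19.5, 14.1 and 20.3 CPM in 1/7MC, against 3.87, 3.54 and 3.67 CPM in MC. MC lay between the 2 pyruvate groups and 1/7MC without overlap, and the mean was 39.6-fold lower in 1/7MC+Pyr than in 1/7MC.

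MAB21L1, a nucleotidyltransferase-fold protein needed for lens and eye growth in mice, showed the largest span between 1/7MC and MC among the 9 genes. It had 1.78, 1.18 and 2.89 CPM in 1/7MC+Pyr+FGF, and 1.61, 1.87 and 1.35 CPM in 1/7MC+Pyr. In 1/7MC it had 72.8, 69.5 and 77.8 CPM, against 0.924, 0.926 and 1.37 CPM in MC. The 1/7MC mean was 68.3-fold that of MC, and the 1/7MC+Pyr range overlapped both the 1/7MC+Pyr+FGF and the MC range. MAB21L1 overlaps NBEA in the RefSeq gene table, and the kit is not stated to mark strand. NBEA had 27.4 to 45.1 CPM over the 12 libraries with group means of 32.3, 35.3, 39.5 and 31.3 CPM in 1/7MC+Pyr+FGF, 1/7MC+Pyr, 1/7MC and MC.

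RORB, a retinoid-related orphan nuclear receptor of rod and amacrine cell development in mice, was the only member whose 4 groups did not overlap at any step. It had 2.18, 1.66 and 1.73 CPM in 1/7MC+Pyr+FGF, and 3.91, 4.46 and 5.40 CPM in 1/7MC+Pyr. The 1/7MC libraries had 10.1, 10.8 and 10.1 CPM, and the MC libraries 0.196, 0.255 and 0.186 CPM. MC was thus the lowest group for RORB, while for RAX and SIX3 it was the highest. RORB in 1/7MC+Pyr kept 44.5% of its 1/7MC mean, while SIX3 kept 77.8%, LHX2 32.1% and the other 6 members 2.19% to 12.8%.

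The 3 libraries of 1/7MC lay above all 9 others for 7 of the 9 members, a pattern that 12.2% of the 13920 genes tested showed; the members were chosen with it known. Within groups, single libraries were often the highest or lowest for several members. In 1/7MC+Pyr+FGF, replicate 3 was the highest library for 8 of 9 members, RORB being the exception, while it was the highest for 25.3% of all genes tested. In 1/7MC, replicate 3 was highest for 7 members and replicate 2 lowest for 7 (30.5% and 39.4% of all genes). In MC each replicate was highest for 3 members. These are descriptions of single libraries, with no test.

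**Figure D2:**
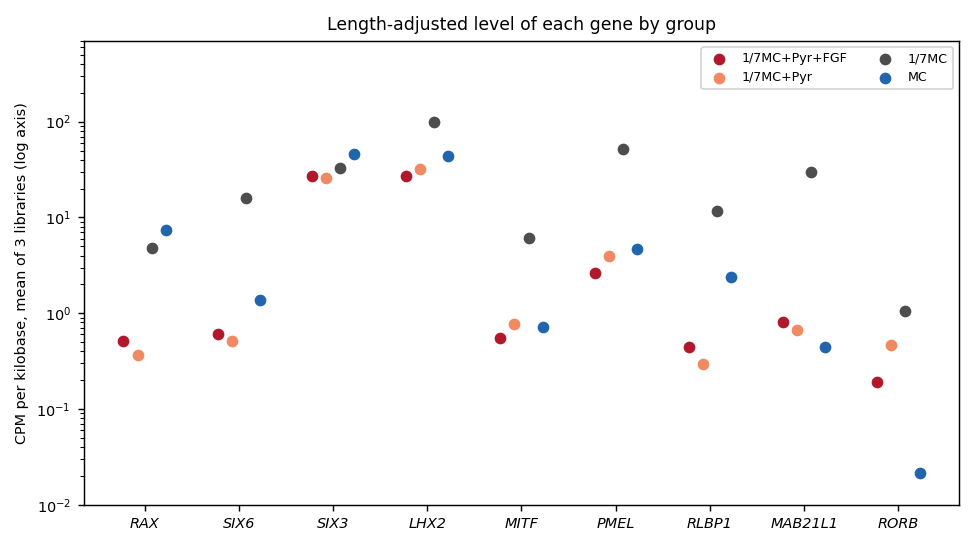
Mean CPM per kilobase of gene length on a log axis, 1 point per group for each of the 9 genes, from 3 libraries each. LHX2 (99.6) and PMEL (51.9) lead in 1/7MC, and SIX3 (45.9) and LHX2 (43.6) in MC.

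Levels were compared between genes per kilobase of the deposited gene length. In 1/7MC the order of mean CPM per kilobase was LHX2 (99.6), PMEL (51.9), SIX3 (33.1), MAB21L1 (30.2), SIX6 (16.1), RLBP1 (11.6), MITF (6.06), RAX (4.77) and RORB (1.05). In MC, SIX3 (45.9) and LHX2 (43.6) led, followed by RAX (7.46) and PMEL (4.72), and RORB came last (0.0217). SIX3 and LHX2 were also the most abundant members per length in 1/7MC+Pyr+FGF (26.8 and 27.4) and in 1/7MC+Pyr (25.8 and 32.0). These 2 factors therefore stayed at well-measured levels in all groups, while RAX and SIX6 were near the low end in the pyruvate groups.

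The comparison of 1/7MC+Pyr+FGF with 1/7MC+Pyr addresses what the FGF addition went with. RORB and PMEL fell, and no other member passed the test. RORB changed by -1.30 ± 0.17 on the log2 scale (± SE here and below, n = 3 libraries a group; edgeR adjusted p = 0.00251), with a mean of 1.86 CPM in 1/7MC+Pyr+FGF against 4.59 CPM in 1/7MC+Pyr and no overlap. PMEL changed by -0.60 ± 0.10 (edgeR adjusted p = 0.0102), with 6.99 against 10.6 CPM and no overlap. Of all 13920 genes tested 2.76% were called, 2.12% lower and 0.639% higher. No member was called higher by edgeR, by DESeq2 or at an unadjusted p. The differences of RAX (0.49 ± 0.33), SIX6 (0.20 ± 0.31), SIX3 (0.06 ± 0.13), LHX2 (-0.23 ± 0.15), MITF (-0.50 ± 0.37), RLBP1 (0.54 ± 0.36) and MAB21L1 (0.27 ± 0.27) had adjusted p-values of 0.422 to 0.831 in edgeR, which does not show that the levels were alike. Those of SIX6, SIX3 and MAB21L1 turned sign without a single library: SIX6 was -0.0082 without 1/7MC+Pyr replicate 3, and SIX3 and MAB21L1 were -0.12 and -0.11 without 1/7MC+Pyr+FGF replicate 3. PMEL missed the threshold in a fit without the 1/7MC libraries (-0.61, edgeR adjusted p = 0.0525). Beside these, 2 of 15 fibroblast and feeder markers fell and 1 rose; their part in the result was not tested. The falls numbered 0 or 1 without any 1 of the 6 libraries compared except 1/7MC+Pyr replicate 2, and 1 without 1/7MC replicates 1 or 3 or MC replicates 2 or 3.

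**Figure D3:**
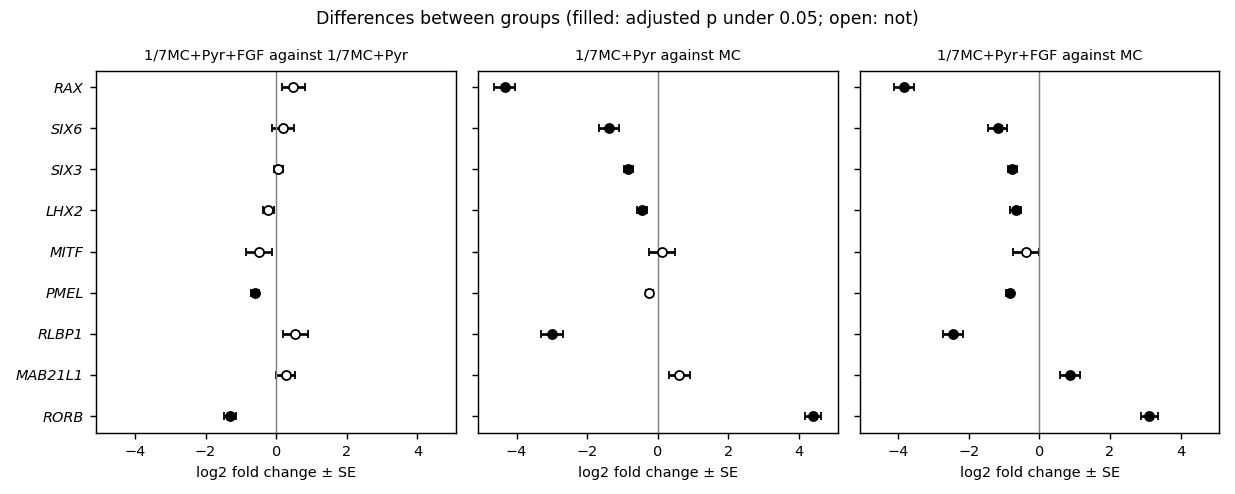
Log2 fold changes with their SE for the 9 genes in the 3 comparisons that do not use 1/7MC, 3 libraries per group; filled points have an edgeR adjusted p under 0.05. RAX (-4.33 and -3.85) and RORB (4.41 and 3.11) lie farthest from 0 in the comparisons of 1/7MC+Pyr and 1/7MC+Pyr+FGF with MC.

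The comparisons of both pyruvate groups with MC ask how the supplemented cells stood relative to MC; they share the MC libraries. The 4 eye field factors and RLBP1 fell in 1/7MC+Pyr, and RORB rose. RAX changed by -4.33 ± 0.30 (edgeR adjusted p = 8.25e-07), RLBP1 by -2.99 ± 0.32 (2.40e-05), SIX6 by -1.38 ± 0.29 (0.00374), SIX3 by -0.83 ± 0.13 (0.000455) and LHX2 by -0.45 ± 0.15 (0.0411). RORB changed by 4.41 ± 0.23 (edgeR adjusted p = 9.57e-08), a mean of 4.59 CPM in 1/7MC+Pyr against 0.212 CPM in MC. These are 5 of 9 lower and 1 of 9 higher, where 28.4% of all genes were called, 13.2% lower and 15.2% higher. Values of both groups had entered the choice of the members. PMEL (-0.24 ± 0.10, adjusted p = 0.104), MITF (0.12 ± 0.37, 0.836) and MAB21L1 (0.60 ± 0.29, 0.142) did not pass in edgeR.

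Relative to MC, 6 of 9 members fell in 1/7MC+Pyr+FGF and 2 rose, where 32.5% of all genes were called, 15.4% lower and 17.1% higher. RAX changed by -3.85 ± 0.28 (edgeR adjusted p = 1.58e-06), RLBP1 by -2.45 ± 0.29 (7.66e-05), SIX6 by -1.18 ± 0.28 (0.00676), PMEL by -0.84 ± 0.10 (9.60e-05), SIX3 by -0.77 ± 0.13 (0.000779) and LHX2 by -0.67 ± 0.15 (0.00504). RORB rose by 3.11 ± 0.24 (edgeR adjusted p = 2.23e-06) and MAB21L1 by 0.88 ± 0.28 (0.0325). Mean MAB21L1 was 1.95 CPM in 1/7MC+Pyr+FGF against 1.07 CPM in MC, and the ranges overlapped. MITF (-0.38 ± 0.37, adjusted p = 0.451) did not pass in edgeR. All 6 pyruvate libraries lay below all 3 MC libraries for RAX, SIX6, SIX3, LHX2 and RLBP1, 5 of 9 members, against 14.3% of all genes, and above them for RORB, against 14.6%.

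Against MC replicate 1 alone, the calls of RAX, RLBP1, SIX6, SIX3 and RORB held in both comparisons, and that of PMEL in 1/7MC+Pyr+FGF. SIX6 was closest to the threshold there (adjusted p = 0.0364 and 0.0484 in edgeR). LHX2 missed it in both (-0.37, adjusted p = 0.367, and -0.62, 0.0746). LHX2 in 1/7MC+Pyr also missed it without any 1 of 1/7MC replicate 1, 1/7MC+Pyr replicates 2 or 3, or MC replicates 2 or 3 (edgeR adjusted p up to 0.151). MAB21L1 in 1/7MC+Pyr+FGF missed it against MC replicate 1 alone (1.06, 0.110) and without 1/7MC+Pyr+FGF replicates 1 or 3 or MC replicates 1 or 2 (adjusted p up to 0.141 in edgeR). MITF turned with its MC libraries: against MC replicate 1 alone it was -0.62 (adjusted p = 0.285) in 1/7MC+Pyr and -1.15 (0.0300) in 1/7MC+Pyr+FGF, and without that library it was 0.76 (0.0476) and 0.26 (0.512) in edgeR. In 1/7MC+Pyr it was also below 0 once any 1 of MC replicates 2 (-0.12) or 3 (-0.11) or 1/7MC+Pyr replicate 2 (-0.09) was left out. PMEL in 1/7MC+Pyr passed without MC replicate 1 (-0.32, edgeR adjusted p = 0.0331).

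Of the 15 markers of fibroblasts and feeders, 14 rose in 1/7MC+Pyr and 14 in 1/7MC+Pyr+FGF relative to MC, where 15.2% and 17.1% of all genes were called higher. No such marker was lower there in edgeR, in DESeq2 or by unadjusted p. The list had medians of 1.31 in 1/7MC+Pyr and 1.72 in 1/7MC+Pyr+FGF on the log2 scale. Their part in the differences of the members was not tested. In these bulk libraries fewer cells of a type and less RNA per cell cannot be told apart.

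Other eye field and optic vesicle factors were listed with earlier results known, 16 of 20 being testable. In 1/7MC against MC 9 of the 16 rose and 2 fell (23.7% and 21.3% of all genes tested, 45.0% together), with a median log2 fold change of 1.56 against 0.0048 over all genes. The T-box factor TBX2 (5.59 ± 0.27), the homeobox genes HMX1 (3.94 ± 0.41) and OTX1 (3.73 ± 0.36) and TBX3 (3.51 ± 0.25) changed most. In the same comparison 15 of 15 fibroblast and feeder markers rose, and 7 of 10 pluripotency markers fell. Their part in the change of the list, and in the levels of the members, was not tested. In 1/7MC+Pyr against 1/7MC, which shares the 1/7MC libraries, 9 fell and 1 rose (10.1% and 8.08% of all genes, 18.1% together), with a median of -1.53 against -0.0113. OTX1 (-4.28 ± 0.38), TBX2 (-3.99 ± 0.23), HMX1 (-3.77 ± 0.41) and the retinaldehyde dehydrogenase ALDH1A3 (-3.06 ± 0.25) led. Beside them 6 of 10 pluripotency markers rose, and 6 of 15 fibroblast and feeder markers fell and 2 rose. Those falls numbered 3 without 1/7MC+Pyr replicate 3. Those rises numbered 4 without 1/7MC+Pyr replicate 2, and 1 without any 1 of 1/7MC replicates 1 or 3 or 1/7MC+Pyr replicate 1. With 1/7MC+Pyr+FGF against 1/7MC, 11 fell and 1 rose (15.7% and 11.9% of all genes, 27.6% together), with a median of -1.64 against 0.0109. The 1 rise in 1/7MC+Pyr was HESX1 (0.75 ± 0.21), named after its value was seen, which did not pass without any 1 of 1/7MC replicates 1 or 2 or 1/7MC+Pyr replicates 2 or 3. HESX1 was also the 1 rise in 1/7MC+Pyr+FGF against 1/7MC (1.27 ± 0.21), and it fell in 1/7MC against MC (-1.62 ± 0.21). Both of these calls held whichever library was left out.

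PAX6, the paired-box factor of the eye field, had 7.28, 4.75 and 9.38 CPM in 1/7MC+Pyr+FGF and 10.01, 10.81 and 7.209 CPM in 1/7MC+Pyr. It had 65.6, 70.5 and 70.1 CPM in 1/7MC, against 24.3, 19.1 and 19.9 CPM in MC. As for SIX6, LHX2 and RLBP1, 1/7MC was highest, MC next and both pyruvate groups lowest. PAX6 fell relative to MC in 1/7MC+Pyr (-1.17 ± 0.21) and in 1/7MC+Pyr+FGF (-1.56 ± 0.21). OTX2, a factor of the anterior neural plate that was named after its values were seen, had 137 to 195 CPM in all 12 libraries.

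Of the 16 factors, 4 rose in 1/7MC+Pyr against MC and 6 fell (15.2% and 13.2% of all genes). PAX2, a paired-box factor of the optic stalk, changed by -2.58 ± 0.14, the retinaldehyde dehydrogenase ALDH1A1 by -1.87 ± 0.48, MAB21L2, the paralog of MAB21L1, by 1.73 ± 0.28, and VSX1, a retinal homeobox gene, by 1.97 ± 0.66. VSX1 missed the threshold without any 1 of 9 libraries, and against MC replicate 1 alone 2 rose and 2 fell, ALDH1A1 and VSX1 missing it. For 1/7MC+Pyr+FGF against MC, 3 rose and 5 fell (17.1% and 15.4% of all genes). ALDH1A3, 1 of those falls, changed by -1.14, and by -0.86 against MC replicate 1 alone, where its call did not hold. The largest changes between 1/7MC+Pyr+FGF and all MC libraries were TBX2 (2.92 ± 0.28), PAX2 (-2.66 ± 0.14), TBX3 (1.92 ± 0.25) and ALDH1A1 (-1.58 ± 0.45). ALDH1A1 missed the threshold there without MC replicate 3 (edgeR adjusted p = 0.0557) and against MC replicate 1 alone, where its change was -1.75 (0.0737). TBX2 rose in 1/7MC+Pyr+FGF against 1/7MC+Pyr (1.32 ± 0.23; edgeR adjusted p = 0.0576 without 1/7MC+Pyr replicate 1, and 2 factors rose without MC replicate 1), and none fell by edgeR, by DESeq2 or at an unadjusted p.

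**Figure D4:**
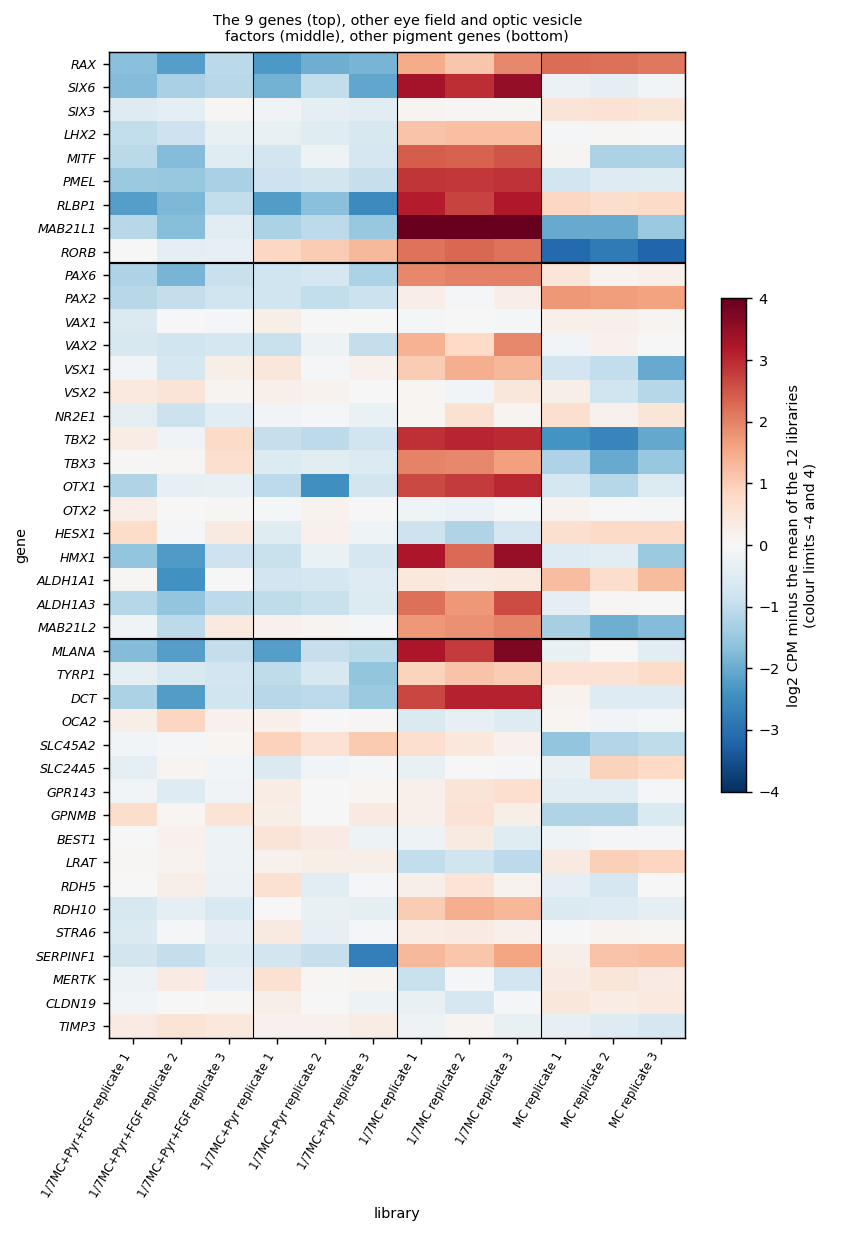
Log2 CPM minus the mean of the 12 libraries for each gene (rows) and library (columns), for the 9 genes, 16 other eye field and optic vesicle factors and 17 other pigment genes that passed the filter. Red in the 1/7MC columns marks TBX2, HMX1 and OTX1 of the middle block and MLANA and DCT of the lower block, while most pigment genes stay pale.

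Of 22 pigment genes beyond the members, 17 were testable. In 1/7MC against MC 7 rose and 3 fell (23.7% and 21.3% of all genes; 1 fell against MC replicate 1 alone), with a median of 0.40 against 0.0048. MLANA, a melanosome protein, changed by 3.88 ± 0.48, DCT, a melanin synthesis enzyme, by 3.23 ± 0.29, the retinol dehydrogenase RDH10 by 1.77 ± 0.14, and the melanosome transporter SLC45A2 by 1.73 ± 0.21. Between 1/7MC+Pyr and 1/7MC, 5 fell and 3 rose in 1/7MC+Pyr (10.1% and 8.08%), with MLANA (-5.55 ± 0.58), DCT (-4.19 ± 0.31), SERPINF1 (-2.65 ± 0.41), a factor secreted by pigment epithelium, and the melanin enzyme TYRP1 (-2.07 ± 0.21) in front. The rises numbered 1 without any 1 of the 6 libraries compared except 1/7MC replicate 2, and without MC replicates 2 or 3.

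Tyrosinase, the rate-limiting enzyme of melanin synthesis, was almost undetected. TYR had 0, 0 and 1 counts in 1/7MC+Pyr+FGF, 0 in each 1/7MC+Pyr library, 2, 3 and 3 counts in 1/7MC, and 1, 0 and 2 counts in MC. PMEL in the same 1/7MC libraries had 4115, 5055 and 4862 counts. RPE65, the visual-cycle isomerase of mature pigment epithelium, had at most 1 count in any library. DCT was well measured, with 1.71, 0.847 and 2.41 CPM in 1/7MC+Pyr+FGF, 1.92, 1.98 and 1.46 CPM in 1/7MC+Pyr, 26.9, 35.6 and 35.9 CPM in 1/7MC, and 4.59, 2.94 and 2.90 CPM in MC. TYRP1 lay at 1.63 to 3.89 CPM in the pyruvate libraries, at 9.38 to 11.2 CPM in 1/7MC and at 7.47 to 8.42 CPM in MC. Of the 17 testable pigment genes 3 rose and 5 fell against MC in 1/7MC+Pyr (15.2% and 13.2% of all genes). In 1/7MC+Pyr+FGF 4 rose and 4 fell (17.1% and 15.4%). The 5 falls in 1/7MC+Pyr numbered 2 without any 1 of its libraries, and 3 without MC replicates 2 or 3. SLC45A2 rose in 1/7MC+Pyr (2.16 ± 0.21) and in 1/7MC+Pyr+FGF (1.26 ± 0.21). GPNMB (1.27 ± 0.29 and 1.56 ± 0.29) and TIMP3 (0.70 ± 0.12 and 0.93 ± 0.12) also rose in both. In 1/7MC+Pyr against MC replicate 1 alone, GPNMB was 1.52 and TIMP3 0.54, and their calls did not hold. SERPINF1 fell against MC in 1/7MC+Pyr (-2.22 ± 0.41) and in 1/7MC+Pyr+FGF (-1.70 ± 0.39), but did not pass in either against MC replicate 1 alone.

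MITF, PMEL, MLANA and DCT are also expressed in melanocytes, which arise from neural crest. Of 10 neural crest and melanocyte genes all were detected in every group, with a summed level of 27.99 to 36.02 CPM in 1/7MC+Pyr+FGF, 49.4 to 62.0 CPM in 1/7MC+Pyr, 57.2 to 59.1 CPM in 1/7MC and 57.8 to 60.6 CPM in MC. SOX10, a defining factor of that lineage that was named after its values were seen, had 7, 10 and 15 counts in 1/7MC, against 97, 52 and 45 counts in MC, and fell (-2.68 ± 0.42) where MITF and PMEL stood high. In the same comparison 5 of the 10 rose and 3 fell (23.7% and 21.3% of all genes), led by TFAP2B (5.70 ± 0.93), PAX3 (4.47 ± 0.48), the endothelin receptor EDNRB (4.18 ± 0.26) and SNAI2 (3.25 ± 0.16). TFAP2B was barely detected, with means of 0.749 CPM in 1/7MC and 0.0093 CPM in MC. PAX3 averaged 4.52 CPM in 1/7MC and 0.196 CPM in MC. The part of the neural crest and melanocyte genes in the levels of MITF and PMEL was not tested.

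Of 24 photoreceptor and retinal neuron genes 15 were below the filter. Of 14 lens genes 9 passed it. CRYAB was the most abundant, with means of 193.5, 211.6, 424.7 and 156.3 CPM in 1/7MC+Pyr+FGF, 1/7MC+Pyr, 1/7MC and MC, while the lens crystallin CRYAA had 2 counts in 1 library and 0 in the other 11. In 1/7MC against MC 4 of 9 testable photoreceptor and neuron genes rose and 1 fell (23.7% and 21.3% of all genes), led by ISL1 (4.46 ± 0.26), a factor of retinal and other neurons. The 1 fall was not called without 1/7MC replicates 1 or 2 or against MC replicate 1 alone. In 1/7MC+Pyr against 1/7MC 3 fell (10.1% of all genes) and none rose in edgeR (8.08% of all genes). At an unadjusted p 1 rose, and 0 by DESeq2. ISL1 fell by 1.55 ± 0.21 on the log2 scale. The falls numbered 1 without any 1 of 1/7MC replicates 1 or 3 or 1/7MC+Pyr replicates 2 or 3. Of 9 testable lens genes 3 rose and 1 fell in 1/7MC against MC, led by CRYAB (1.44 ± 0.21), a small heat shock protein also made outside the lens; the fall was lost without any 1 library of the 2 groups.

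Among the paralogs of the members, 17 of 23 were testable, and they did not share 1 direction. In 1/7MC against MC 5 rose and 6 fell (23.7% and 21.3% of all genes), with SIX2 (4.70 ± 0.26), TFEC (4.47 ± 0.42), a relative of MITF, and MAB21L2 (3.50 ± 0.30) up and the LIM factor LHX5 (-3.19 ± 0.16) down. In 1/7MC+Pyr against 1/7MC 5 rose and 3 fell (8.08% and 10.1%), with TFEC (-4.11 ± 0.40) and SIX2 (-1.995 ± 0.22) down and LHX1 (2.74 ± 0.39) up. LHX2 and its relatives LHX1 and LHX5 thus had opposite signs in each of the 2 comparisons, the signs of LHX2 being a description. TFEC had 4.25, 4.32 and 4.45 CPM in 1/7MC and at most 0.445 CPM in any other library. TFE3, another relative of MITF that was named after its values were seen, had group means of 138 to 183 CPM.

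**Figure D5:**
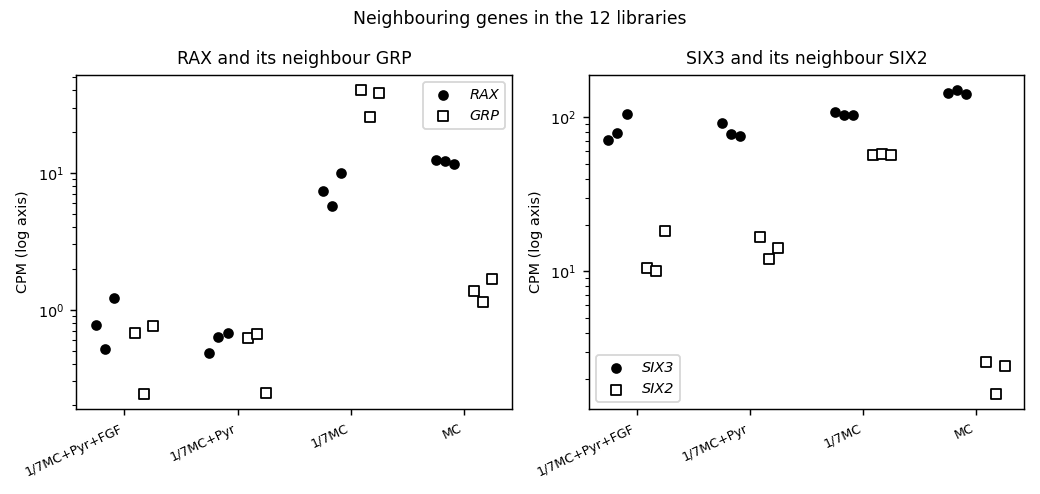
CPM on a log axis in the 12 libraries for RAX (filled) with its neighbour GRP (open), and for SIX3 (filled) with its neighbour SIX2 (open). GRP and SIX2 are highest in 1/7MC, at 34.8 and 57.0 CPM on average, where RAX and SIX3 are below their MC means.

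Genes next to the members in the RefSeq gene table were looked up after the values were seen. GRP, which encodes a neuropeptide, is the nearest protein-coding gene on 1 side of RAX. It had 0.679, 0.242 and 0.765 CPM in 1/7MC+Pyr+FGF, 0.617, 0.661 and 0.249 CPM in 1/7MC+Pyr, 40.5, 25.5 and 38.5 CPM in 1/7MC, and 1.37, 1.15 and 1.67 CPM in MC. Both genes were low in the pyruvate groups, but GRP rose in 1/7MC against MC (4.64 ± 0.32) while the mean of RAX was lower there. GRP also fell against MC in 1/7MC+Pyr (-1.42 ± 0.39) and in 1/7MC+Pyr+FGF (-1.28 ± 0.37), and was -1.38 and -1.27 against MC replicate 1 alone, where it missed the threshold (edgeR adjusted p = 0.110 in both). SIX2, the nearest on 1 side of SIX3, had 10.5, 10.1 and 18.4 CPM in 1/7MC+Pyr+FGF, 16.8, 12.1 and 14.1 CPM in 1/7MC+Pyr, 56.9, 57.6 and 56.5 CPM in 1/7MC, and 2.577, 1.596 and 2.412 CPM in MC. SIX2 rose against MC in 1/7MC+Pyr (2.70 ± 0.25) and in 1/7MC+Pyr+FGF (2.56 ± 0.25), where SIX3 fell. CDK2, beside PMEL, lay between 40.3 and 68.0 CPM. It rose in 1/7MC against MC (0.39 ± 0.11) and fell in 1/7MC+Pyr against 1/7MC (-0.59 ± 0.11). DGKA, on the other side of PMEL, changed in the same directions (0.275 ± 0.074 and -0.42 ± 0.07). FRMD4B, on 1 side of MITF, averaged 8.74, 8.51, 18.1 and 5.67 CPM in 1/7MC+Pyr+FGF, 1/7MC+Pyr, 1/7MC and MC, and fell in 1/7MC+Pyr against 1/7MC (-1.09 ± 0.13). DCLK1, on 1 side of MAB21L1, averaged 89.3, 160.2, 222.3 and 28.5 CPM in the same order of groups. Its MC libraries had 2272, 320 and 314 counts, the first being the one with other gene models than the rest of MC. FRMD4B and DCLK1 had their highest mean in 1/7MC, as MITF and MAB21L1 did. DCLK1 did not pass against 1/7MC in 1/7MC+Pyr (-0.47 ± 0.50, edgeR adjusted p = 0.576) or in 1/7MC+Pyr+FGF (-1.32 ± 0.51, 0.0729). Mean MAB21L1 in 1/7MC+Pyr was 2.19% of its 1/7MC mean.

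Genes with the most similar pattern were sought by the root mean square difference of centred log2 CPM over the 12 libraries. For RAX these were KLHL14 (0.53), NDST4 (0.53), C14H8orf33 (0.68), ROBO3 (0.73) and RELN (0.73). KLHL14 averaged 0.453, 0.205, 4.27 and 4.56 CPM in 1/7MC+Pyr+FGF, 1/7MC+Pyr, 1/7MC and MC. For LHX2 they were MAP2 (0.20), FAM222A (0.22), SAMD10 (0.22), GPM6A (0.23) and SLIT1 (0.23), and MAP2 averaged 26.6, 36.4, 94.1 and 37.3 CPM in the same order of groups. For MITF they were ZNF503 (0.30), CRYGN (0.37), DIPK1C (0.39), ABCG1 (0.40) and SH3GL2 (0.48). Among the members themselves the closest pairs were MITF with PMEL (0.55) and SIX6 with PMEL (0.56), and the most distant was RAX with RORB (3.15). All values share the same 12 libraries and are a description.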

How the data were processed

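Poly-A RNA was sequenced from 12 libraries in 4 groups. The tools named per the submitters' processing notes are HISAT2 2.1.0, fastp 0.19.7, featureCounts and Subread 2.0, with build bosTau9; the gene annotation is not given in the sources used here. The deposited counts are whole numbers per gene, not normalised by the authors. The deposited table called TPM gives, per gene, a signal equal to count over length times 4.94, without depth scaling, and served only as an alternative after rescaling.

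Of 19285 entries, 400 with shared identifiers were left out. Symbols came from RefSeq's table of ARS-UCD2.0 by Entrez identifier (18803 of 18885 kept entries), another build, so no coordinates are given. filterByExpr left 13920 genes. Tests used edgeR 4.0.16 (TMM, quasi-likelihood F test, 12 libraries in 1 fit, 1 coefficient per group, Benjamini-Hochberg over all genes tested, call at adjusted p under 0.05) in R 4.3.3; DESeq2 1.42.0 was an alternative. SE is the fold change over the square root of F. The fit was checked on simulated counts. CPM use TMM-scaled totals; log2 CPM a prior count of 2. Intervals cover counting error only. Figures were drawn with matplotlib 3.10.9.

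Members and gene lists were chosen with earlier results of these data known. The rule for named genes was all members, up to 4 called genes of the largest change per list and comparison, and the 5 genes most like RAX, LHX2 and MITF. The general neural progenitor list was also computed: of its 11 testable genes 4 rose and 4 fell in 1/7MC against MC (23.7% and 21.3% of all genes). Some listed genes are not reported here.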

Additional observations from a re-analysis of the deposited data

How the results depend on the processing

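Counts of members called in the 3 tested comparisons held within 1.5 times under DESeq2, its size factors in edgeR, no or a stricter filter and the replicate block. In a fit without the 1/7MC libraries, chosen after seeing the data, 1 member was lower in 1/7MC+Pyr+FGF against 1/7MC+Pyr and 1 was higher in 1/7MC+Pyr+FGF against MC. Against MC replicate 1 alone, 1 member was higher in 1/7MC+Pyr+FGF against MC. Leaving out each library in turn gave 1 to 2 members higher in 1/7MC+Pyr against MC (2 without MC replicate 1) and 1 to 2 higher in 1/7MC+Pyr+FGF against MC (1 without 1/7MC+Pyr+FGF replicates 1 or 3 or MC replicates 1 or 2). Against MC replicate 1 alone, MITF in 1/7MC+Pyr was -0.62. Leaving out each library in turn, fold changes in 1/7MC+Pyr+FGF against 1/7MC+Pyr ran from -0.0082 to 0.67 for SIX6, from -0.12 to 0.17 for SIX3 and from -0.11 to 0.52 for MAB21L1, while MITF ran from -0.12 to 0.76 in 1/7MC+Pyr against MC and from -0.75 to 0.26 in 1/7MC+Pyr+FGF against MC. The causes were not tested. LHX2 in 1/7MC+Pyr against MC also missed the threshold under the replicate block (adjusted p = 0.0662 in edgeR) and without the 1/7MC libraries (0.0857), and MAB21L1 in 1/7MC+Pyr+FGF against MC without the 1/7MC libraries (0.0784). The titles' replicate numbers did not pair the libraries: deviations of 18 same-numbered pairs correlated from -0.316 to 0.333, with 2 over 0.1, and the block changed no other member's call. Of the list counts given above, in 1/7MC against MC pigment genes lower numbered 5 by DESeq2 and under the stricter filter (against 3 above), lens genes lower 0 by DESeq2 and with no filter and 2 under the block (1), photoreceptor and neuron genes lower 2 with no filter (1), and neural crest genes higher 3 under the stricter filter (5). In 1/7MC+Pyr+FGF against 1/7MC+Pyr, eye field factors higher numbered 2 by DESeq2 (1), and fibroblast markers lower 0 under the block (2); in 1/7MC+Pyr+FGF against 1/7MC, eye field factors higher numbered 2 by DESeq2 (1). Ratios of 1/7MC to the other groups kept their direction in every alternative run. Depth limits RORB in MC and RLBP1 and RAX in the pyruvate groups.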
